A study of Mus musculus with 6 samples.

Results

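The genes described here are the ligands and receptors of the tumour necrosis factor (TNF) superfamily, taken by symbol from the deposited gene table. The rule took every numbered Tnfsf and Tnfrsf symbol together with Tnf, Lta, Ltb, Ltbr, Fas, Fasl, Cd40, Cd40lg, Cd27, Cd70, Eda2r and Edar. It matched 44 of 54232 gene IDs: 17 ligands, 26 receptors and Tnfsf13os, an antisense RNA that carries a ligand's symbol but encodes no ligand. Of these, 35 had 10 or more counts over the 6 libraries and are reported, namely 9 ligands, 25 receptors and the antisense RNA. The other 9 were 8 ligands and 1 receptor, with 34 counts between them.

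Ligands of this superfamily are mostly membrane proteins that act as trimers on the cell surface or after release by a protease. Their receptors carry cysteine-rich repeats outside the cell. Inside the cell, one class holds a death domain, which can recruit Fadd and Casp8 and lead to cell death, and another binds TRAF adaptors, which activate the NF-kappaB transcription factors. Decoy receptors bind ligand without passing on a signal. In skeletal muscle the best-known members are Tnf, which promotes wasting, the pair of Tnfsf12 (TWEAK) and its receptor Tnfrsf12a (Fn14), linked to repair and atrophy, and Tnfrsf11a (RANK), known from osteoclast formation and also studied in muscle fibres.

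The RNA came from tibialis anterior, a muscle of the lower leg, of C57BL6 mice at 1 month of age, and was sequenced as stranded mRNA libraries. The wild-type group (WT) has 3 libraries, WT 1 to 3. The other 3, D51 4 to 6, came from mice lacking exon 51 of Dmd, the dystrophin gene (Delta 51 in the labels). Both groups share strain, age and muscle, and the labels name no treatment. They number the libraries of a genotype as biological replicates but do not say in so many words that each came from its own animal, so p-values measure the spread between these libraries.

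Reads assigned to genes numbered 15681945 to 21020353 per library. Dmd stood at 235 to 266 CPM in WT and 46.4 to 51.1 CPM in D51, where CPM is the usual library-scaled count, here with TMM scaling factors. It was called lower, with a log2 fold change of -2.37. Muscle fibre genes were abundant, as the tissue label gives: 6 of them, among them Acta1 and Ckm, summed to 108360 to 111046 CPM in WT and 69194 to 96638 CPM in D51. Fold changes are log2 of D51 over WT with a standard error (SE). When only library size was used for scaling, the median over all tested genes went from -0.01 to 0.34, so all changes below are relative to the bulk of genes. In a bulk sample, more cells of a type and more RNA per cell cannot be told apart.

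Of the 19 receptors tested, 8 rose in D51 muscle and 11 were not called, and of the 4 ligands tested 1 fell. Of the 35 reported members, 24 passed the expression filter and were tested (edgeR quasi-likelihood test, called at an adjusted p under 0.05). Of those, 8 were higher, all of them receptors, where 16.1% of all 14335 tested genes were called higher. The single member called lower was the ligand Tnfsf10, where 11.9% of all tested genes were called lower. In 8 tested members every D51 library lay above every WT library (23.8% of all tested genes), and in 2 every D51 library lay below (21.7%). The median log2 fold change was 0.39 over the 24 tested members and -0.01 over all tested genes. Cd40, Tnfrsf13b, Tnfrsf26 and Tnfsf13b passed the filter through their D51 libraries alone, so the counts and the median lean towards rises and are given as description.

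**Figure D1:**
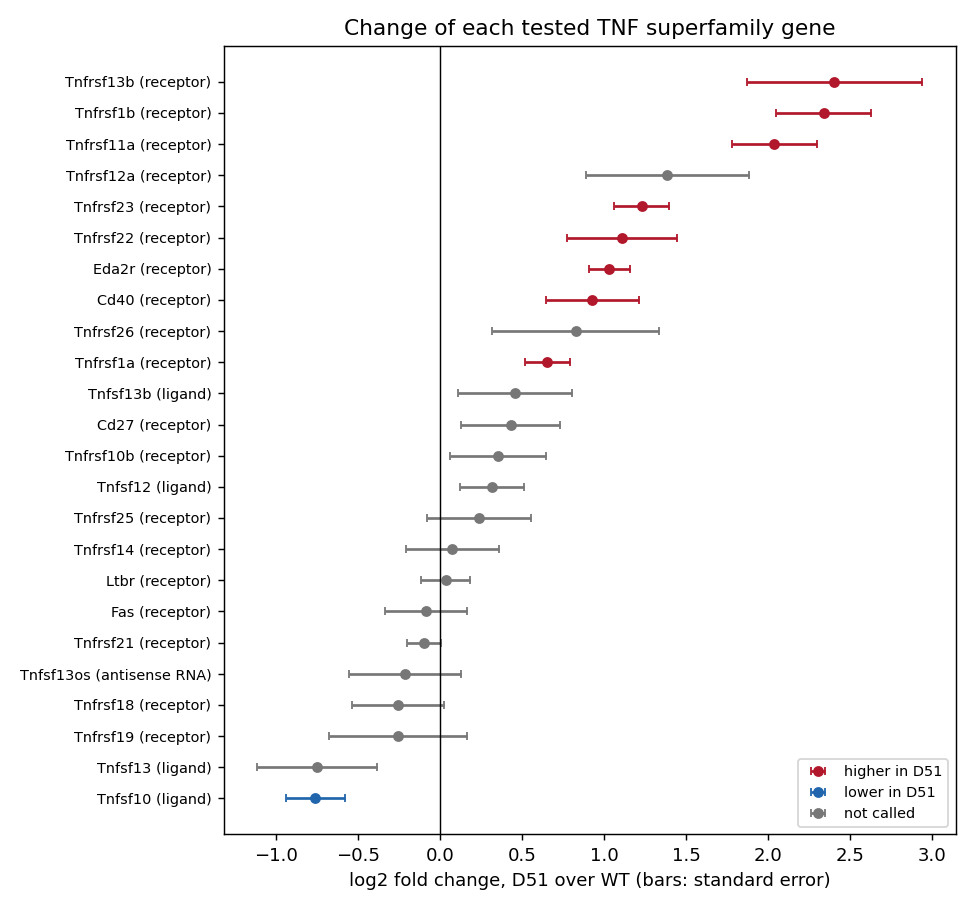
Log2 fold change of D51 over WT for the 24 tested genes (horizontal axis), with bars of 1 standard error. Red marks the 8 receptors called higher, blue the ligand Tnfsf10 called lower and grey the 15 genes not called, among them Tnfrsf12a with a fold change of 1.39.

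Tnfsf10 (ENSMUSG00000039304) encodes TRAIL, a ligand that can trigger cell death. It stood at 12.9, 15.1 and 19.3 CPM in WT 1, 2 and 3 and at 7.66, 9.93 and 10.3 CPM in D51 4, 5 and 6. All D51 libraries lay below all WT libraries, with group means of 15.8 ± 3.22 and 9.29 ± 1.42 CPM (SD, n = 3 each). The log2 fold change was -0.76 (SE 0.179, edgeR adjusted p = 0.0167). The call ended without WT 2 (-0.80), without D51 4 (-0.64) and under library-size scaling (-0.41), where 10 members were higher and 0 lower beside 37.6% and 2.33% of all genes. The gene lies on the forward strand of chromosome 3 at 27317028 to 27342427 in GRCm38.

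Tnfsf12 encodes TWEAK, which many tissues make. It was at 6.20, 6.14 and 4.44 CPM in WT and 6.12, 8.49 and 6.39 CPM in D51, and was not called (0.32, SE 0.195). The ranges of the groups overlapped, although D51 5 lay above all other libraries. Tnfsf13b, the B cell survival factor BAFF, had WT and D51 means of 0.880 ± 0.310 and 1.21 ± 0.296 CPM without a call (0.46). Tnfsf13, the related ligand APRIL, was at 0.673 ± 0.137 and 0.404 ± 0.134 CPM; all D51 libraries lay below WT, but the change was not called (-0.75, SE 0.366). Tnfsf13 and Tnfsf12 lie side by side on chromosome 11 (69682846 to 69685784 and 69686250 to 69695849). A read-through gene, Tnfsfm13, shares 60.0% and 48.3% of their exon bases on the same strand, so reads of these ligands may be split or dropped. The antisense RNA Tnfsf13os (69682138 to 69691141, opposite strand) was at 0.760 ± 0.210 and 0.670 ± 0.191 CPM (-0.21) and shares 221 exon bases with Tnfsf13. Whether the counting used strand is not given, so the antisense pair is uncertain.

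The other 13 ligands were near the limit of detection. Tnf had 4, 2 and 1 counts in WT and 4, 4 and 1 in D51. Tnfsf11, the RANK ligand, had 3 counts in WT 3, 0 in WT 1 and WT 2, and 3, 2 and 10 in D51. Over all 6 libraries Tnfsf8 (CD30 ligand) had 24 counts, Tnfsf9 (4-1BB ligand) 23 and Tnfsf14 (LIGHT) 12. Below the minimum of 10 counts were Ltb (9), Tnfsf18 (7), Tnfsf15 (6), Tnfsf4 (3), Fasl (3), Lta (1), Cd40lg (1) and Cd70, with 0 counts, which allows up to 3. At these depths a difference between genotypes was not detectable for most of them. The filter removed all 5 with 10 or more counts, and a fit without it called none of these 5 (log2 fold changes from -0.02 for Tnf to 1.84 for Tnfsf11).

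Among receptors with a death domain, Tnfrsf1a rose and 4 of the 5 tested were not called, beside 16.1% of all tested genes called higher. Tnfrsf1a (ENSMUSG00000030341) is the widely expressed receptor of Tnf. It stood at 27.6, 21.7 and 23.1 CPM in WT and 43.2, 38.8 and 32.0 CPM in D51, with means of 24.1 ± 3.05 and 38.0 ± 5.62 CPM. No D51 library fell into the WT range, and D51 6 lay nearest to it. The log2 fold change was 0.66 (SE 0.139, edgeR adjusted p = 0.0113), and the call ended without WT 2 (0.58). Tnfrsf1a lies on chromosome 6 at 125349362 to 125362484.

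Tnfrsf21 (ENSMUSG00000023915), death receptor 6, was the most abundant member in WT. It stood at 42.7, 49.9 and 49.3 CPM in WT and 39.6, 45.8 and 47.0 CPM in D51, and the ranges overlapped. It was not called (-0.10, SE 0.104), and its fold change turned to 0.25 under library-size scaling, also not called. Fas, the receptor of Fasl, was at 8.91 ± 2.82 and 8.37 ± 1.52 CPM (-0.09), with WT 1 the lowest library at 5.70 CPM. Tnfrsf10b, the TRAIL receptor that signals death in the mouse, was at 2.70 ± 0.949 and 3.47 ± 0.804 CPM (0.35), and Tnfrsf25 at 1.68 ± 0.631 and 1.99 ± 0.415 CPM (0.24). Edar, the receptor of ectodysplasin A1 in hair and tooth development, had 28 counts in all and was not tested.

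The largest rises were in receptors that bind TRAF adaptors: of 11 tested, 5 rose and 6 were not called (16.1% of all tested genes higher). Tnfrsf1b (ENSMUSG00000028599), the Tnf receptor found mostly on immune and endothelial cells, stood at 5.31, 4.16 and 5.51 CPM in WT and 22.5, 36.4 and 16.7 CPM in D51. The groups were far apart, and within D51 the values ranged widely, with D51 5 highest. The means of 4.997 ± 0.728 and 25.2 ± 10.2 CPM gave a log2 fold change of 2.34 (SE 0.291, edgeR adjusted p = 0.00164). Tnfrsf1b lies on the reverse strand of chromosome 4 at 145213463 to 145246870.

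Tnfrsf11a (ENSMUSG00000026321), which encodes RANK, stood at 2.16, 1.42 and 1.07 CPM in WT and 6.20, 7.57 and 5.66 CPM in D51. The spread within D51 was small beside the gap between groups (1.55 ± 0.553 against 6.48 ± 0.983 CPM). The log2 fold change was 2.04 (SE 0.261, edgeR adjusted p = 0.00184). The gene lies on chromosome 1 at 105780718 to 105847981. Tnfrsf13b (ENSMUSG00000010142), which encodes TACI, a receptor of BAFF and APRIL known from B cells, stood at 0.443, 0.384 and 0.788 CPM in WT and 2.87, 4.33 and 1.14 CPM in D51. D51 6 lay close to the WT range and below the other D51 libraries. The log2 fold change was 2.41 (SE 0.536, edgeR adjusted p = 0.0136), and the call ended without WT 2 (2.20). Tnfrsf13b lies on chromosome 11 at 61126755 to 61149372.

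Eda2r (ENSMUSG00000034457), the receptor of ectodysplasin A2, was close to even across the WT libraries. It stood at 18.1, 17.6 and 17.8 CPM in WT and 30.3, 41.5 and 37.6 CPM in D51. All D51 libraries were higher, and here D51 4, not D51 6, was the lowest of them. The log2 fold change was 1.03 (SE 0.125, edgeR adjusted p = 0.0015). Eda2r lies on the X chromosome at 97333840 to 97377216. Eda, the gene of its ligand, is outside the symbol rule and was not called (0.11, from 4.46 to 4.82 CPM). Cd40 (ENSMUSG00000017652), the costimulatory receptor of antigen-presenting cells, fell outside the rule for giving values in full because neither group's mean reached 1 CPM. It is given here after its values were seen, as 1 of the 8 members called. It stood at 9, 10 and 7 counts in WT and 21, 27 and 17 counts in D51 (log2 fold change 0.93, SE 0.283, edgeR adjusted p = 0.0424). Its call ended in 9 of 12 alternatives, among them DESeq2 (0.93) and the removal of WT 1 (0.89), WT 2 (0.97), WT 3 (0.90), D51 4 (0.996) or D51 5 (0.79).

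Tnfrsf12a (ENSMUSG00000023905), which encodes Fn14, the receptor of TWEAK, was not called, and 1 library in each group stood out. It was at 8.24, 4.55 and 3.58 CPM in WT 1, 2 and 3 and at 25.8, 10.1 and 7.22 CPM in D51 4, 5 and 6. The lowest D51 library lay below the highest WT library, so the groups overlapped. The means were 5.46 ± 2.46 and 14.4 ± 10.01 CPM, with a log2 fold change of 1.39 (SE 0.497, edgeR adjusted p = 0.0708). The change was called in 3 of 13 alternatives: without D51 6 (1.70), under library-size scaling (1.76) and with a block by replicate number, given at the end. Without D51 4 it was 0.65 and not called. WT 1 and D51 4, the highest libraries of their groups here, both carry replicate number 1. Whether the numbers pair the libraries is not known. The gene lies on chromosome 17 at 23675445 to 23677468.

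The remaining TRAF-binding receptors gave no call. Ltbr, the lymphotoxin beta receptor, was at 22.3 ± 4.71 and 22.9 ± 1.73 CPM (0.03), with WT 1 the highest library at 27.8 CPM. Tnfrsf19 (TROY) varied widely within both groups: 29.5, 12.9 and 10.8 CPM in WT and 22.5, 9.71 and 12.5 CPM in D51 (-0.26, SE 0.421). WT 1 and D51 4 held the highest values of both Tnfrsf19 and Tnfrsf12a in their groups. Receptors of lymphocyte costimulation were low: Cd27 at 1.11 ± 0.175 and 1.498 ± 0.464 CPM (0.43), Tnfrsf14 at 1.29 ± 0.374 and 1.34 ± 0.205 CPM (0.08) and Tnfrsf18 at 1.15 ± 0.253 and 0.968 ± 0.168 CPM (-0.25). For Tnfrsf18, 27.2% of the exon bases overlap an antisense gene, Gm16008, so its values are uncertain.

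**Figure D2:**
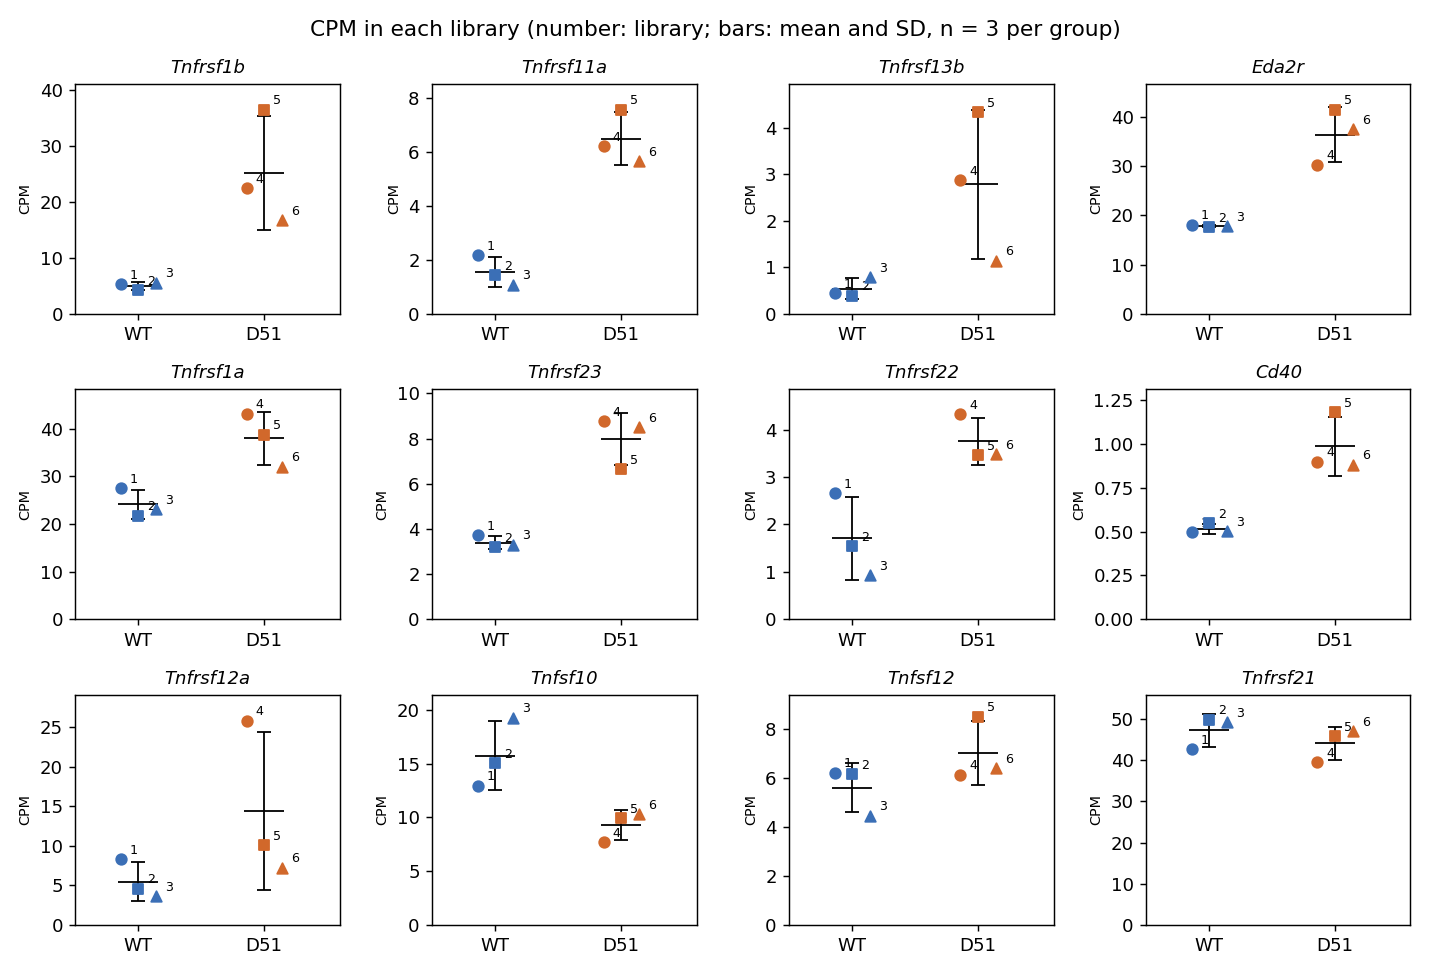
CPM of 12 members in each library, with WT in blue and D51 in orange, the library number beside each point and bars of mean and SD (n = 3 per group). For Tnfrsf1b, Tnfrsf11a and Eda2r all D51 points lie above all WT points, whereas in Tnfrsf12a D51 4 at 25.8 CPM stands above the rest and D51 6 at 7.22 CPM lies below WT 1.

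The decoy receptors Tnfrsf22 and Tnfrsf23 rose. They bind TRAIL in the mouse and lack a death domain. Tnfrsf23 (ENSMUSG00000037613) stood at 3.71, 3.18 and 3.29 CPM in WT and 8.77, 6.65 and 8.52 CPM in D51 (log2 fold change 1.23, SE 0.169, edgeR adjusted p = 0.00234). Tnfrsf22 (ENSMUSG00000010751) stood at 2.66, 1.53 and 0.931 CPM in WT and 4.32, 3.46 and 3.48 CPM in D51 (1.11, SE 0.334, edgeR adjusted p = 0.0406). In both genes every D51 library was above every WT library, but in Tnfrsf22 the gap between WT 1 and D51 5 was small. The call of Tnfrsf22 ended without WT 2 (1.02), WT 3 (0.83), D51 4 (0.998), D51 5 (1.18) or D51 6 (1.16). The neighbouring Tnfrsf26 had means of 0.414 ± 0.258 and 0.777 ± 0.308 CPM without a call (0.83, SE 0.51). The remaining decoy, Tnfrsf11b (osteoprotegerin, which binds the RANK ligand), had 2, 6 and 3 counts in WT and 24, 11 and 4 in D51 and did not pass the filter.

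Tnfrsf22 and Tnfrsf23 are close copies, which matters for how far their counts can be separated. They lie on the reverse strand of chromosome 7 at 143634806 to 143649661 and 143665809 to 143685872. Their longest GENCODE coding sequences (594 and 528 bases) were identical at 90.7% of 528 aligned bases, and 17.3% and 18.0% of the distinct 50-base words in their transcripts occur in both genes. Tnfrsf26 shared 0 such words with either. A stretch of 90 coding bases, bases 77 to 166 of Tnfrsf22 and 47 to 136 of Tnfrsf23, shows the likeness, with the 12 bases that differ in capitals.
Tnfrsf22: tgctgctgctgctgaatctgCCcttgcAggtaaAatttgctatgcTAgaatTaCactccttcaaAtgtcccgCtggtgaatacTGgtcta
Tnfrsf23: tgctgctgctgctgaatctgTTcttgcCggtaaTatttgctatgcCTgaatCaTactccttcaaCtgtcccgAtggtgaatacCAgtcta
How reads that match both genes were counted is not given, so the split between these 2 genes is uncertain. Their sum was 6.36, 4.71 and 4.23 CPM in WT and 13.1, 10.1 and 12.0 CPM in D51, again with no overlap.

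Receptors under the filter included 1 that was seen in D51 only. Tnfrsf9 encodes 4-1BB, a costimulatory receptor that activated T cells and other immune cells carry. It had 0 counts in each WT library and 4, 6 and 5 in D51. Taking 3 counts as the floor for WT as a group, the D51 level was 3.84 times that floor. The counting error of the 15 D51 counts is not included, so this is not a lower limit. The filter removed it, and a fit of all genes with 10 or more counts, which it entered through its D51 counts alone, called it (edgeR adjusted p = 0.0188). That fit had 8 members higher and 1 lower, beside 13% and 8.62% of all genes, with Tnfrsf9 in and Cd40 out. Tnfrsf4 had 53 counts over all libraries, Tnfrsf8 41 and Tnfrsf17, the receptor BCMA of plasma cells, 12, and none of these 3 was called in that fit. Tnfrsf13c, the BAFF receptor of B cells, had 4 counts and was the only receptor below the minimum.

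Promoter sequences from RefSeq (GRCm38.p6) were found for 27 of the 35 reported symbols. The 250 bases before each start were searched on both strands for the kappaB consensus bound by NF-kappaB and for the AP-1 site TGANTCA. The kappaB consensus was present for 3 of the 27 genes (7.25% of all 32817 RefSeq starts) and AP-1 for 6 (6.75%). A gene was counted if any of its starts matched, whereas the share of all is per start, so the 2 are not fully alike. The 6 matched genes among those called higher held neither in this window. Tnfrsf9 and Tnfrsf8 each held both, and they are shown with Tnfrsf1b, which is also on chromosome 4 and held neither, because their counts differ in pattern: Tnfrsf9 was seen in D51 only, and Tnfrsf8 was at 18 counts in WT and 23 in D51. Matches are in capitals, the first run being the kappaB consensus (overlapping matches joined) and the second AP-1. They lie at chr4:150927749-150927998 (forward strand, the downstream of 2 starts) for Tnfrsf9, chr4:145315165-145315414 (reverse) for Tnfrsf8 and chr4:145246871-145247120 (reverse) for Tnfrsf1b.
Tnfrsf9: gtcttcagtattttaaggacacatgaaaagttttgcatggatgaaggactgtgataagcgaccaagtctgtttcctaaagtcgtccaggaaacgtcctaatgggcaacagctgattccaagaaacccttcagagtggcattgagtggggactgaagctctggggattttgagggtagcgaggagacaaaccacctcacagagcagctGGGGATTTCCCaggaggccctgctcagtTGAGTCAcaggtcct
Tnfrsf8: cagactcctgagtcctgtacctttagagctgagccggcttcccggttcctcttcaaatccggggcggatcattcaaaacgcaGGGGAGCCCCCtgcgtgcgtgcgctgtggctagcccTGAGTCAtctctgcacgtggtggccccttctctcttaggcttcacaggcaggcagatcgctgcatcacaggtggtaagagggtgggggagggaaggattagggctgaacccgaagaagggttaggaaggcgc
Tnfrsf1b: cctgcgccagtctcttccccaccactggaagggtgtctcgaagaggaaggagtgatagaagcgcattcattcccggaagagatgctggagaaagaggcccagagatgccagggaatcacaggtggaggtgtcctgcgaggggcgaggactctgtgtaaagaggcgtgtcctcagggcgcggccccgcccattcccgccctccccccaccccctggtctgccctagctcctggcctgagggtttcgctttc
A match is a run of letters, not a measured binding site.

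Levels were compared between genes as RPKM, the TMM-scaled CPM divided by the deposited exon length in kilobases. In WT the order began with Tnfrsf21 at 13.0 ± 1.10, Ltbr at 9.49 ± 2.00, Tnfrsf1a at 9.31 ± 1.18, Tnfrsf12a at 5.67 ± 2.56 and Fas at 4.95 ± 1.56 RPKM. In D51 it began with Tnfrsf12a at 14.9 ± 10.4, Tnfrsf1a at 14.7 ± 2.17, Tnfrsf21 at 12.2 ± 1.11, Ltbr at 9.73 ± 0.733 and Tnfrsf1b at 6.60 ± 2.66 RPKM. Neighbours in these orders overlapped between libraries, with the exception of Tnfsf10 against Tnfrsf1b in WT, and of Tnfrsf21 against Ltbr and Tnfsf10 against Tnfrsf11a in D51. Tnfrsf1b moved from the tenth to the fifth place and Tnfrsf11a from 21 to 12. The place of Tnfrsf12a rests on its deposited length of 963 bases: GENCODE M21 gives 1932 bases, with which it would stand at 2.82 and 7.43 RPKM. Lengths matched that release for 39 of the 44 members. Among those that did not were Tnfrsf21 (3626 bases deposited, 4109 in GENCODE) and Fas (1801 and 2062). Their levels rest on the deposited lengths too, as does the lack of overlap between Tnfrsf21 and Ltbr in D51.

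Summed over all receptors, the level was 63.0, 54.0 and 52.9 RPKM in WT and 94.5, 82.8 and 69.3 RPKM in D51. Summed over all ligands it was 7.54, 7.72 and 7.51 RPKM in WT and 6.68, 8.57 and 7.30 RPKM in D51. The receptor sums did not overlap between groups, and the ligand sums did. Tnfsf10 and Tnfsf12 together made up 86.9% to 89.5% of the ligand sum in WT and 82.2% to 87.4% in D51.

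**Figure D3:**
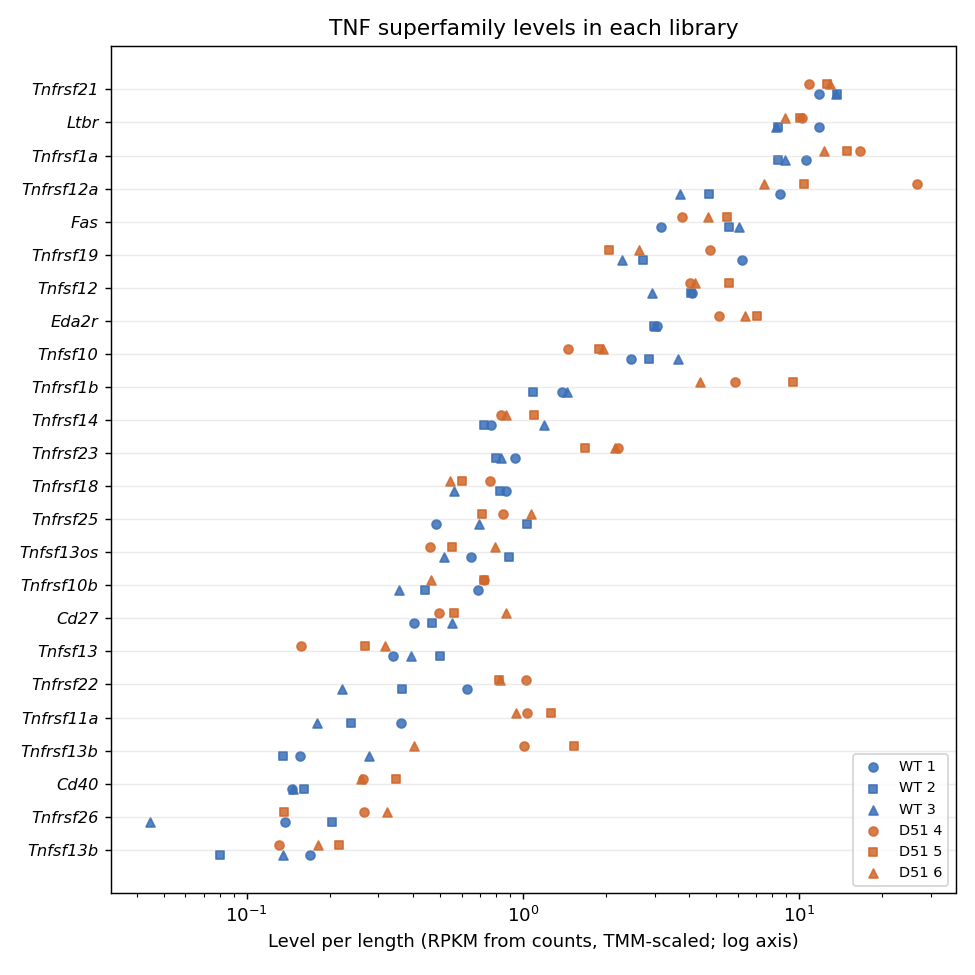
Level per length (RPKM, log axis) of the 24 tested genes in each of the 6 libraries, ordered by their WT mean, with WT in blue and D51 in orange. The top 3 in WT are Tnfrsf21, Ltbr and Tnfrsf1a, and the orange points stand clear of the blue ones for Tnfrsf1b, Tnfrsf11a and Tnfrsf23.

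Ligands and their receptors were set side by side on the RPKM scale. Tnf was at 0.0819 and 0.0810 RPKM in WT and D51, while Tnfrsf1a was 114 and 181 times and Tnfrsf1b 16.0 and 81.5 times that level, with ligand values that rest on 16 counts. Tnfsf12 was at 3.69 and 4.62 RPKM, and Tnfrsf12a at 1.54 and 3.23 times that level. These ratios rest on the deposited length of Tnfrsf12a. With the GENCODE length it would stand at 2.82 and 7.43 RPKM, below Tnfsf12 in WT and above it in D51. Tnfsf10 moved opposite to its decoys: Tnfrsf23 was at 0.286 times the level of Tnfsf10 in WT and 1.14 times in D51, and Tnfrsf22 at 0.135 and 0.504 times. The death receptor Tnfrsf10b stood at 0.166 and 0.361 times the level of the same ligand, with only the ligand called. For Tnfsf11 and Tnfrsf11a the ratios were 8.10 and 9.87, with 18 ligand counts in all. Tnfrsf13b was at 1.48 and 5.56 times the level of Tnfsf13b. The ratios were not tested.

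**Figure D4:**
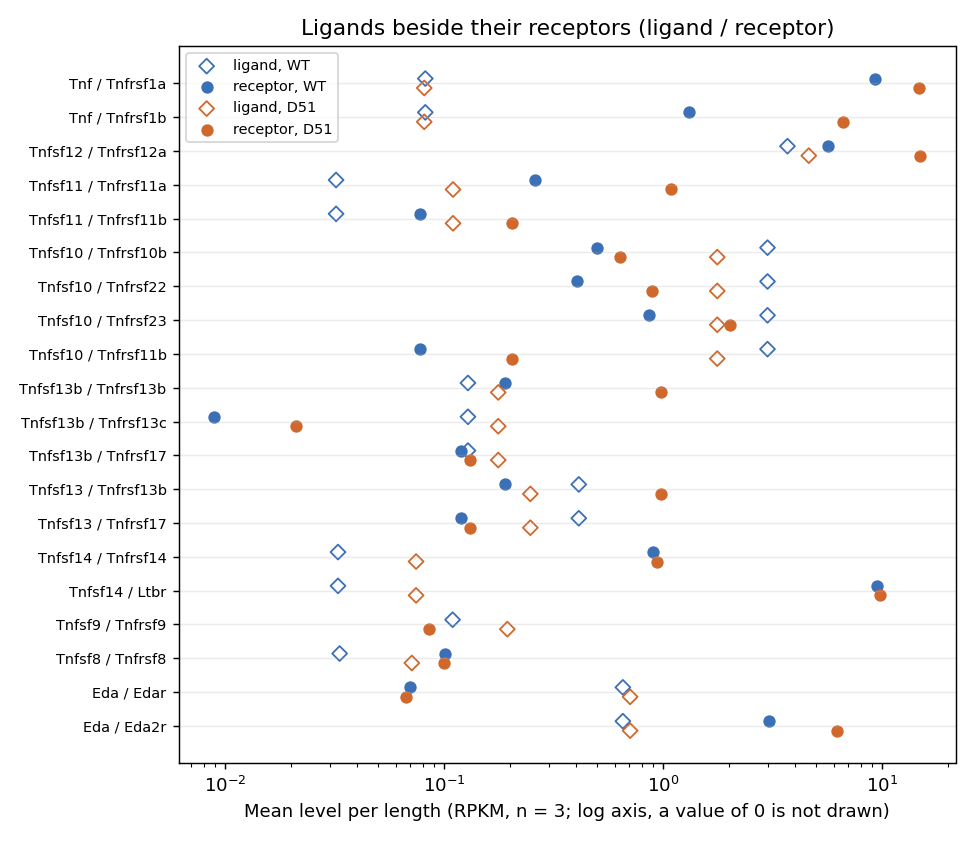
Mean RPKM (log axis, n = 3 per group) of each ligand with 10 or more counts (open diamonds) beside its receptor (filled circles), WT in blue and D51 in orange. Tnf lies near 0.0819 RPKM in both groups, far left of Tnfrsf1a and Tnfrsf1b, and for Tnfsf10 the diamonds shift left and the circles of Tnfrsf22 and Tnfrsf23 shift right in D51.

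The called receptors did not rank the D51 libraries in 1 way. Of the 8, 5 were highest in D51 5 and 3 in D51 4, and 5 were lowest in D51 6, 2 in D51 5 and 1 in D51 4. The rise in D51 6, as a share of the mean rise in D51 4 and 5, was 19.7% for Tnfrsf13b, 46.9% for Tnfrsf1a, 47.7% for Tnfrsf1b, 70.0% for Cd40, 77.0% for Tnfrsf11a, 81.2% for Tnfrsf22, 109% for Eda2r and 119% for Tnfrsf23. Tnfrsf1b, Tnfrsf11a, Tnfrsf13b and Cd40 had the order D51 5, D51 4 and D51 6 from high to low. The summed macrophage, neutrophil, B cell, endothelial, satellite cell and myoblast, and proliferation markers had the same order. Of these, the endothelial sum was lower in D51 than in WT and the B cell counts were low. The neutrophil order was that of the marker Csf3r alone. The shared order was not tested.

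Markers of other cells moved with the same comparison, in which 16.1% of all tested genes were called higher and 11.9% lower. All 8 macrophage markers were called higher, and their summed level was 61.9 to 122.8 CPM in WT and 664.5, 1081 and 462.5 CPM in D51 4, 5 and 6. Cd68 and Adgre1, with the smallest adjusted p, had log2 fold changes of 4.08 and 3.10. Dendritic cell markers summed to 13.4 to 14.8 and 27.6 to 51.7 CPM, with 2 of 5 tested called higher. Itgax, which macrophages also carry, made up most of that gap (0.805 to 22.4 CPM), while Clec9a was at 2.34 and 2.40 CPM and not called. The T cell markers summed to 0.712 to 1.93 and 3.19 to 4.05 CPM. Both tested members (Cd4 and Cd3e) were called higher, and 3 of the 8 were below 10 counts. Some markers, among them Cd4, Cd3e and Csf3r, were too low in WT to pass the filter there. They passed through their D51 libraries, so the counts called in the marker lists lean towards rises. B cell markers, of interest beside Tnfrsf13b, summed to 0.501 to 0.775 CPM in WT and 0.208 to 1.01 CPM in D51, and none of the 5 reached the filter. NK cell markers summed to at most 1.11 CPM, and of the neutrophil markers Ly6g had 0 counts in all libraries while Csf3r was called higher. The part of these cells in the rises of Tnfrsf1b, Tnfrsf11a, Tnfrsf13b, Tnfrsf1a and Cd40 was not tested.

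RNA of markers of cells in the muscle itself also differed, beside the 16.1% of all tested genes called higher and 11.9% lower. Satellite cell and myoblast genes summed to 30.4 to 32.2 CPM in WT and 97.7, 124.6 and 82.7 CPM in D51, with 3 of 5 called higher (Mymk, Myog and Myod1). Of these, Mymk was too low in WT to pass the filter there and passed through D51. Markers of fibro-adipogenic progenitors, the mesenchymal cells between fibres, had 3 of 5 higher, among them Dpt (1.07) and Pdgfra (0.82), with sums of 495 to 665 and 668 to 866 CPM. Endothelial markers had 3 of 5 lower (Tek, Tie1 and Cdh5), with sums of 422 to 509 and 297 to 376 CPM. Tnfsf10 and the endothelial sum were both lower in D51, and 3 libraries a group are too few to compare their order within groups. In WT 1 the endothelial sum included the marker Kdr at 108 CPM, beside 49.1 CPM in WT 2 and 47.8 CPM in WT 3. The part of endothelial cells in the fall of Tnfsf10 was not tested. Proliferation genes summed to 2.96 to 6.09 CPM in WT and 96.6, 112.9 and 18.9 CPM in D51, with 5 of 5 higher. Some of these, among them Cdk1 and Birc5, were too low in WT to pass the filter there. They passed through D51, so this count leans towards rises. Mast cell markers had 0 of 5 called, with sums of 9.97 to 16.9 and 13.6 to 21.0 CPM.

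By position, Cd27, Ltbr and Tnfrsf1a lie within one stretch of chromosome 6 from 125232622 to 125362484, all 3 were tested, and Tnfrsf1a alone was called (0.66 against 0.43 for Cd27 and 0.03 for Ltbr). The difference between neighbours was not tested.

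Genes linked to the receptors or their ligands, by action or by name, were read from 5 lists. Among the genes named below, Bid, Atp6v0d2, Mmp9 and Tnfaip8l2 did not reach the filter in all WT libraries. They passed through their D51 libraries, so the list counts and medians lean towards rises. Of 18 tested TRAF and death adaptor genes, 6 rose and 0 fell (median log2 fold change 0.61, against -0.01 for all genes and 16.1% called higher). Traf1, an adaptor that NF-kappaB itself induces, rose from 0.762 ± 0.271 to 3.66 ± 1.71 CPM (2.29, SE 0.423). Bid, which links death receptors to mitochondria, rose by 1.90 (SE 0.344), Casp8, the caspase at the receptor, by 1.04 (SE 0.23) and Birc3, a ubiquitin ligase bound to TRAF proteins, by 0.67 (SE 0.148). The call of Casp8 ended without WT 2 (0.96).

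Of 15 NF-kappaB factors and kinases, 2 rose, 3 fell and 10 were not called (median 0.23), beside 16.1% of all tested genes higher and 11.9% lower. In a list of 15 genes a single gene moves these shares, so they are given as description. Nfkb2, the precursor of the factor in the noncanonical branch, rose from 8.47 ± 2.26 to 17.5 ± 3.05 CPM (1.04, SE 0.208). Ikbke, an inducible kinase, rose from 1.47 ± 0.122 to 4.43 ± 1.04 CPM (1.59, SE 0.24). Tab2, a partner of the kinase TAK1, fell from 253 ± 11.3 to 162 ± 26.9 CPM (-0.64, SE 0.128). Map3k7, which encodes TAK1, and Tab3, named after its values were seen, were lower by small steps (-0.32 and -0.34). Under library-size scaling these turned to 0.02 and 0.009. The calls of Map3k7 and Tab3 ended in 6 and 9 of 13 alternatives, including the removal of any of WT 1, WT 2, WT 3, D51 4 or D51 5 (-0.26 to -0.35 for Map3k7 and -0.28 to -0.40 for Tab3).

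Of 14 NF-kappaB inhibitors and ubiquitin editors, 2 rose, 1 fell and 11 were not called (median 0.32), beside 16.1% of all tested genes higher and 11.9% lower. These few genes are given as description too. Zc3h12a, an RNase that limits inflammatory transcripts, rose from 3.54 ± 0.0695 to 5.94 ± 0.199 CPM (0.75, SE 0.143), and Tnip2 rose by 0.61 (SE 0.158). Nfkbib, an inhibitor that holds NF-kappaB in the cytoplasm, was called lower at -0.38 (SE 0.118), and Otulin, a deubiquitinase, was at 12.8 ± 1.48 and 18.2 ± 3.64 CPM and not called (0.51). The call of Tnip2 ended without WT 2 (0.52), WT 3 (0.61), D51 4 (0.57) or D51 5 (0.57). That of Nfkbib ended in 9 of 13 alternatives (-0.03 under library-size scaling, -0.32 without WT 1), and Otulin gained a call in 5 of 13, among them the removal of D51 6 (0.63).

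Of 9 tested genes of RANK signalling and osteoclasts, 6 rose and 0 fell (median 2.17), beside 16.1% of all tested genes higher and 11.9% lower. Atp6v0d2, a proton pump subunit, rose from 0.394 ± 0.249 to 24.4 ± 12.8 CPM (5.98, SE 0.546), Tyrobp, a signalling adaptor, by 3.68 (SE 0.374), Acp5, the tartrate-resistant acid phosphatase, by 2.88 (SE 0.456) and Csf1r, the receptor of macrophage colony-stimulating factor, by 2.11 (SE 0.30). Macrophages express these genes too, and Csf1r is also in the macrophage list. The rest of the tested genes are named with their values already known. Ctsk (2.17) and Itgb3 (1.44) were called higher. The call of Ctsk ended without WT 2 (1.94), and that of Itgb3 ended in 5 of 13 alternatives. Calcr, the calcitonin receptor, stood at 1.01 and 0.749 CPM and was not called (-0.42). Nfatc1 (-0.22) and Mmp9 (2.32) were not called either. Which cells these transcripts came from was not tested.

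Of 12 genes listed as receptor partners and shedding enzymes, 6 rose, 1 fell and 5 were not called (median 0.46), beside 16.1% of all tested genes higher and 11.9% lower. The list is mixed: Tnfaip6, Tnfaip8, Tnfaip8l2 and Litaf, which rose, are in it through their link to Tnf by name. Adam10 and Adam17 were the shedding enzymes that rose, so the count does not describe shedding enzymes or receptor partners alone. Adam17, the protease that releases Tnf and its receptors from the cell surface, rose from 34.8 ± 0.862 to 49.4 ± 3.77 CPM (0.50, SE 0.0878). Tnfaip8 rose by 1.63 (SE 0.246), Litaf, named for its effect on Tnf transcription, by 1.56 (SE 0.273) and Tnfaip8l2 by 2.81 (SE 0.601; 3.51 without WT 1). The gene that fell was Rhbdf2, a partner that carries Adam17 to the surface, named after its values were seen (-0.54). Its call ended without WT 2 (-0.47) or D51 4 (-0.50) and under library-size scaling (-0.19).

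**Figure D5:**
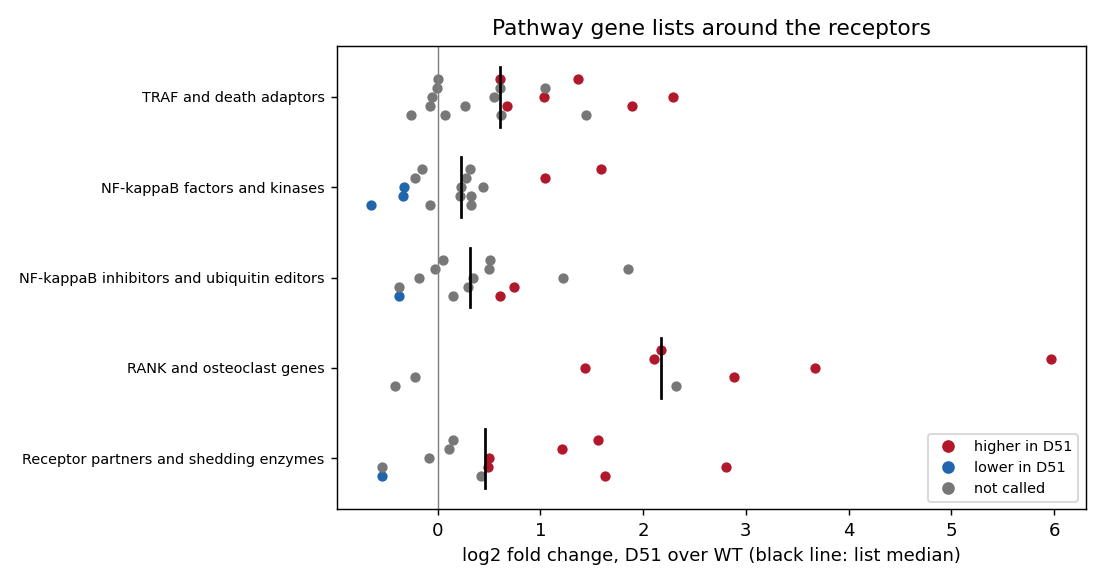
Log2 fold change of D51 over WT (horizontal axis) for each tested gene of the 5 pathway lists, 1 point per gene, with red for higher, blue for lower, grey for not called and a black line at the list median. The medians run from 0.23 for NF-kappaB factors and kinases to 2.17 for RANK and osteoclast genes, where Atp6v0d2 at 5.98 is the rightmost point.

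By the authors' deposited table, which lists 22 of the reported members, 8 were higher and 1 lower at an adjusted p under 0.05, where 19.1% and 18.8% of its genes were. Its higher members include Tnfrsf12a, with a log2 fold change of 1.36 and an adjusted p of 0.0128 in the authors' deposited table, and leave out Cd40 (0.90, adjusted p = 0.0668). For the other members called here the authors' deposited table gives the same direction, with log2 fold changes from 0.62 for Tnfrsf1a to 2.36 for Tnfrsf13b and -0.79 for Tnfsf10.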

How the data were processed

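Per the file headers, the authors' table holds unnormalized read counts by gene and exon lengths in bases. A second deposited table gives log2 fold changes and adjusted p-values of the authors' own comparison. Tools listed in the submitters' processing notes are edgeR 3.30.1, featureCounts 1.6.0 and FastQC 0.11.4, with the build GRCm38 (mm10). For the aligner, annotation release and strand setting, nothing is stated in the sources used here. The deposited RPKM values were not used.

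The test was edgeR 4.0.16's quasi-likelihood F-test (R 4.3.3) on TMM-scaled counts, 3 libraries a group, after edgeR's default low-count filter, with p-values adjusted by Benjamini-Hochberg across 14335 genes. The SE is the absolute log2 fold change divided by the square root of F. RPKM was computed from counts. Intervals and floors cover counting error only. Positions and coding sequences are from GENCODE M21. Replicate libraries differed by 8.52 to 48.0 chi-square per degree of freedom, so none repeats another.

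Members and lists were chosen with earlier results of these data known. Values are given in full for called members of at least 1 CPM and members of at least 10 RPKM in either group. Up to 4 genes a pathway or marker list with the smallest adjusted p could be named. As alternatives, the scaling was changed to DESeq2 size factors or to library size, the filter to 10 counts in all or to 1 CPM in 3 libraries, and the test to DESeq2 1.42.0 or limma-voom (limma 3.58.1), a replicate block was added, and each library was left out in turn.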

Additional observations from a re-analysis of the deposited data

How the results depend on the processing

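The count of superfamily members called higher (8) stayed between 7 and 10 under the other scalings, filters and tests, and was 4 to 8 when 1 library was left out, with 4 (Eda2r, Tnfrsf11a, Tnfrsf1b and Tnfrsf23) without WT 2. These 4 were called in every alternative run. The count called lower (1, Tnfsf10) was 0 under library size alone and 0 to 1 with 1 library left out, with 0 without WT 2 or D51 4. Over all genes, library size alone gave 5394 higher and 334 lower, and leaving out 1 library gave 1346 to 2662 higher and 663 to 2157 lower. Among the left-out libraries, the lower counts that moved by over 1.5 times were 663 without WT 2, 759 without D51 5 and 986 without D51 4, and the higher count that did was 1346 without WT 2. Under library size alone Tnfrsf21 (0.25), Map3k7 (0.02) and Tab3 (0.009) changed sign, as did Fas (0.27), Tnfrsf18 (0.10), Tnfrsf19 (0.09) and Tnfsf13os (0.13), none of them called. Leaving out 1 library also turned the sign of Fas, Ltbr, Tnfrsf14, Tnfrsf19, Tnfrsf25 or Tnfsf13os, which were not called in the main comparison. With a replicate block the members called higher were again 8 and lower 1, with Tnfrsf12a gained (1.31, adjusted p = 0.00164, against 0.0266 to 0.22 in its other alternatives) and Cd40 lost (0.93), and 2508 genes were higher and 1960 lower. Whether the numbers pair the libraries is not known. Same-numbered libraries correlated at 0.352, -0.01 and 0.0562 in their deviations from the group means. The value of 0.352, for WT 1 and D51 4, was the largest between the groups, while WT 2 and WT 3 correlated best with another number. So few correlations cannot decide whether the libraries are paired. Depth limits the ligands most, since 13 of 17 had too few counts to be tested.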
